A study of Mus musculus with 24 samples.

Results

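The miR-106a and miR-106b clusters are 2 groups of neighbouring miRNA genes, each processed from a shared transcript. Both are paralogues of the miR-17 to miR-92 cluster. Described here are 5 of their mature products: mmu-miR-106a and mmu-miR-20b from the miR-106a cluster, and mmu-miR-106b, mmu-miR-93 and mmu-miR-25 from the miR-106b cluster. They were chosen by name, with earlier results of these data known. They are 5 of the 558 mouse miRNA probes, and each has 1 probe. The array has probes for further products of these clusters, such as miR-18b, miR-363 and some starred strands, which are given as context. The prefix mmu- is left out below.

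The cells were 3 mouse mammary carcinoma lines. The labels call 67NR nonmetastatic and 4TO7 systemically invasive, and give 4T1 as highly metastatic. These are sister lines from a common mammary tumour, and each degree of metastasis is represented by 1 line, so that a line and its label cannot be told apart. Cells of every group had grown for 6 days in 3D organotypic culture, in a microenvironment that was either compliant or rigid. Every group also received an agent, which was TGF-beta itself or else a drug against its type I receptor (the inhibitor below, basal in the labels), so no group was free of both. The 12 groups of line, microenvironment and agent had 2 replicates each, on 24 arrays of 5 slides. The labels give no doses and do not say that replicates came from separate cultures, so p-values measure only the spread between these arrays, which may be technical.

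A miRNA guides a silencing complex to messenger RNAs that pair with its seed, the stretch from base 2 to base 8, and lowers the protein they give. The miR-17 family and its paralogues are transcribed with growth-promoting programmes driven by Myc and E2F, and the miR-106b cluster sits in an intron of Mcm7, a subunit of the helicase that opens DNA for replication. Known targets of miR-106b and miR-93 include Cdkn1a, an inhibitor of cyclin-dependent kinases that takes part in the growth arrest by TGF-beta, and a known target of miR-25 is Bcl2l11, which promotes cell death.

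The mature sequences are shown because the members are close copies of each other and of miRNAs of the miR-17 to miR-92 cluster. They come from RefSeq on build GRCm38.p6, run 5′ to 3′ and carry the seed in capitals. The miR-106a cluster gives the following products, which share a seed with each other and with all members but miR-25.
miR-106a: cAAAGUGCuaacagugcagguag
miR-20b: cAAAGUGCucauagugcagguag
The miR-106b cluster gives 2 products with that seed and 1, miR-25, with another.
miR-106b: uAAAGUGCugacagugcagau
miR-93: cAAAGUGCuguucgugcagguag
miR-25: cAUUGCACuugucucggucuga
Their nearest copies in the miR-17 to miR-92 cluster have the same seeds.
miR-17: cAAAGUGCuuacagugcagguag
miR-20a: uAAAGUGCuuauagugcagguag
miR-92a: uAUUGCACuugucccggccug

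Counted from 1 at the 5′ end, with the base of the first named miRNA first, miR-17 and miR-106a differ at 1 of 23 positions (U10A). The change from miR-20a to miR-20b takes 2 (U1C and U10C), and that from miR-106a to miR-20b also 2 (A10C and C12U). From miR-17 to miR-93 there are 4 differences (U10G, A11U, C12U and A13C). Over the 21 positions that both have, miR-20a and miR-106b differ at 3 (U10G, U12C and G20A), and miR-92a and miR-25 at 3 (U1C, C14U and C18U). None of these differences lies in the seed. The seed AAAGUGC is found in 7 mature mouse miRNAs of the RefSeq table and AUUGCAC in 6. The array names carry no arm, so the arm was taken from the older naming, in which the starred form is the other arm. The files hold no probe sequences, and whether a probe separates miR-106a from miR-17, or miR-20b from miR-20a, was not tested. Nor was it tested whether the probes of the other members separate them from near copies.

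In that build the miR-106b cluster has 3 hairpins on the minus strand within 498 bases, at chr5:138165321-138165818, inside the protein-coding gene Mcm7. The miR-106a cluster has 6 hairpins within 875 bases of the minus strand, at chrX:52741693-52742567, and the miR-17 to miR-92 cluster has 6 within 836 bases of the plus strand, at chr14:115043671-115044506. RefSeq places no protein-coding gene over either of the last 2. Both of these clusters also hold a hairpin for miR-19b and one for miR-92a with the same mature sequence, so the probes for these 2 miRNAs cannot tell the clusters apart. The array files name no build, so these positions belong to the reference and not to the measurements.

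Values are relative intensities, the sample dye over a synthetic reference dye. They were put on the log2 scale and quantile normalized over the 558 miRNA probes, so a difference of 1 is a factor of 2. Per array, 313 to 357 probes had a detection p under 0.05, which is called detected here. Replicate arrays correlated at 0.995 to 0.999. The deposited error of the 5 members was 1.52 to 12.2 percent of the intensity. All 5 members were among the 365 probes that passed the filter on dim probes. Differences were tested with limma over these 365, and a probe counted as called at a Benjamini-Hochberg adjusted p under 0.05.

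The 4 members that were detected in all 3 lines were higher in 4TO7 and in 4T1 than in 67NR. The largest difference was that of miR-106a, 3.27-fold in 4TO7 and 3.92-fold in 4T1, and the differences of miR-106b, miR-93 and miR-25 were between 1.66-fold and 2.37-fold. MiR-20b was detected on no array of 67NR and on every array of the other lines. Between 4T1 and 4TO7, miR-106a, miR-106b and miR-93 were higher in 4T1 by at most 1.23-fold.

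MiR-106a had a log2 level of 6.51 to 6.90 in 67NR (median 6.86, n = 8 arrays), 8.41 to 8.69 in 4TO7 (median 8.50) and 8.63 to 8.91 in 4T1 (median 8.80). As deposited, before normalization, its intensity was 103.0 to 132.8, then 303.2 to 454.3, then 379.5 to 527.0 in the same order of lines. All 67NR arrays were thus below all others on both scales, while the ranges of 4TO7 and 4T1 overlapped. Such separation was not counted over the other tested probes, here or for the members below. The log2 difference was 1.71 ± 0.05 (SE; 95% interval 1.60 to 1.82) for 4TO7 against 67NR and 1.97 ± 0.05 for 4T1 against 67NR (limma adjusted p = 1.8e-14 and 1.4e-15). The difference of 0.26 ± 0.05 between 4T1 and 4TO7 also passed (adjusted p = 0.00027).

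MiR-20b stood at 6.49 to 6.58 on the 8 arrays of 67NR (median 6.54), where its detection p was 0.149 to 0.203, so that level is background. It was 7.16 to 7.33 in 4TO7 (median 7.26) and 7.11 to 7.41 in 4T1 (median 7.30), where the highest detection p was 0.00225. Levels in 67NR thus give only a bound: miR-20b was at least 1.64-fold higher in 4TO7 and at least 1.66-fold higher in 4T1. MiR-20b passed the filter on dim probes only through the lines where it is high, so no p is given for these differences. The bound sets the mean of the brighter line against the mean, over the 67NR arrays, of the higher of the probe's own level and the lowest detected level on that array. The levels in 4TO7 and 4T1 did not differ beyond their spread (0.02 ± 0.03, 95% interval -0.05 to 0.08, adjusted p = 0.68).

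The 3 products of the miR-106b cluster were detected on all 24 arrays. MiR-106b was 8.52 to 8.79 in 67NR (median 8.74), 9.53 to 9.88 in 4TO7 (median 9.64) and 9.79 to 10.25 in 4T1 (median 9.93). It was the member of its cluster with the largest difference from 67NR, 0.95 ± 0.05 in 4TO7 and 1.24 ± 0.05 in 4T1 (adjusted p = 6.7e-11 and 1.3e-12), and it was 0.30 ± 0.05 higher in 4T1 than in 4TO7 (adjusted p = 0.00014). Its 67NR arrays lay apart from all others, and the other 2 lines overlapped.

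MiR-93 was 8.53 to 8.67 in 67NR (median 8.61), 9.21 to 9.46 in 4TO7 (median 9.31) and 9.40 to 9.60 in 4T1 (median 9.44). The differences from 67NR were 0.74 ± 0.03 in 4TO7 and 0.88 ± 0.03 in 4T1 (adjusted p = 3.9e-12 and 2.5e-13), and 4T1 exceeded 4TO7 by 0.14 ± 0.03 (adjusted p = 0.0015). The order of the lines was that of miR-106a and miR-106b, again with overlap between 4TO7 and 4T1 only.

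MiR-25, the member with the other seed, was 8.86 to 9.10 in 67NR (median 9.04), 9.79 to 10.01 in 4TO7 (median 9.87) and 9.72 to 10.12 in 4T1 (median 9.91). It was 0.88 ± 0.05 higher than in 67NR in both lines (adjusted p = 2.8e-11 in 4TO7 and 1.9e-11 in 4T1). Between 4T1 and 4TO7 the 95% interval of its difference was -0.10 to 0.10 (adjusted p = 0.99), so a difference of the size seen for miR-106b lies outside that interval.

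**Figure D1:**
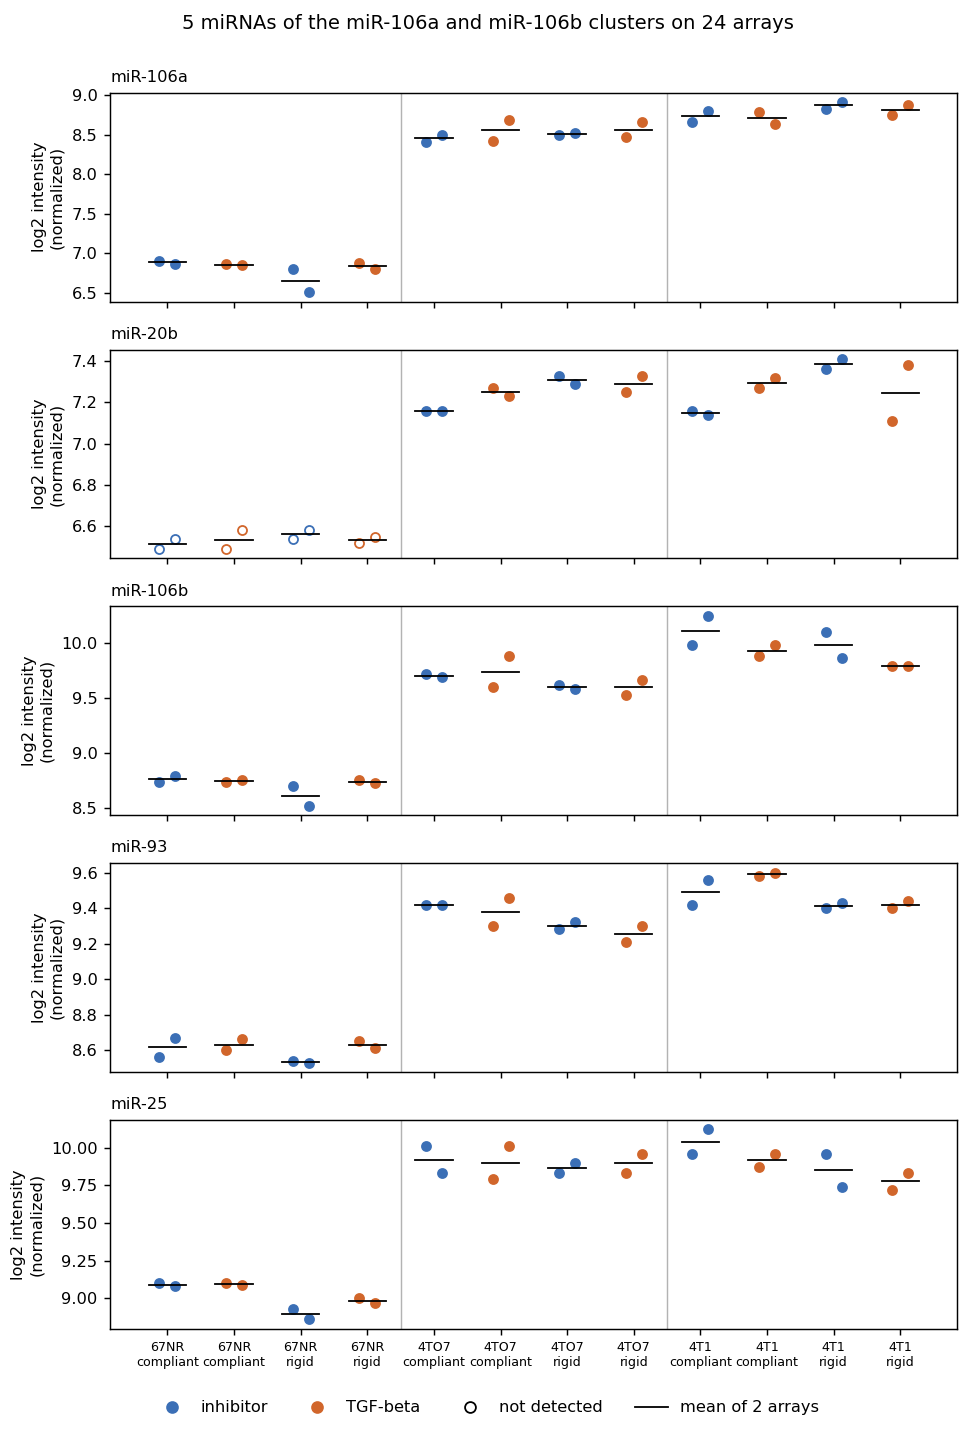
Normalized log2 intensity (y axis) of the 5 miRNAs on each of the 24 arrays, by line, microenvironment and agent (x axis). Points are arrays, open points are arrays on which the probe was not detected, and bars are means of 2 arrays. In the panels of miR-106a, miR-106b, miR-93 and miR-25 all 8 arrays of 67NR lie below all arrays of 4TO7 and 4T1. In that of miR-20b the 67NR arrays hold background. How many of the other tested probes separate the lines in this way was not counted.

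Of the members, miR-20b left aside, 4 of 4 were called higher in 4TO7 than in 67NR where 29.9% of the 365 tested probes were, and 4 of 4 in 4T1 where 30.7% were. For 4T1 against 4TO7, with miR-20b, the count was 3 of 5, beside 23% of tested probes. The median difference of the 4 from 67NR was 0.91 in 4TO7 and 1.06 in 4T1, and that of all tested probes was -0.15 in 4TO7 and -0.22 in 4T1. Under the other settings the all-probe median was -0.08 to -0.18 in 4TO7 and -0.14 to -0.28 in 4T1. The 8 differences of these members from 67NR stayed called under all 6 other settings and lay between 0.71 and 2.06.

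Slides did not hold the lines evenly, so the lines were also compared between arrays of the same slide and condition. Such pairs, some of which share a 67NR array, numbered 4 on 2 slides for 4TO7 against 67NR and 3 on 2 slides for 4T1 against 67NR. Each of them was above 0 for the 4 members detected in 67NR. They ranged from 1.54 to 1.86 and from 1.78 to 1.93 for miR-106a, and from 0.88 to 0.94 and 1.13 to 1.51 for miR-106b. For 4T1 against 4TO7 there were 2 pairs, both above 0 for miR-106a (0.15 and 0.41) and miR-106b (0.27 and 0.29) and at 0.00 and 0.24 for miR-93.

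The lines differ in more than these clusters. Of 6 epithelial marker miRNAs on the array (miR-205 and the miR-200 family, which includes miR-141), 5 were detected on all arrays of 4T1, and only miR-141 on all arrays of 67NR and of 4TO7. Their summed level was 8.59 to 8.68 in 67NR, 8.69 to 9.14 in 4TO7 and 10.61 to 10.83 in 4T1 (log2). Of 4 fibroblast and mesenchymal markers, miR-143 was detected in 67NR only, and the sum fell from 13.53 to 13.79 in 67NR to 13.10 to 13.22 in 4TO7 and 12.76 to 13.10 in 4T1. That sum is almost all miR-214, whose mean was 13.65, 13.08 and 12.78 in 67NR, 4TO7 and 4T1. All summed levels here include probes that were not detected. Neither of 2 endothelial markers was detected on any array, and of 6 blood markers only miR-451 was. Summed levels of muscle markers (1 or 2 of 4 detected) were 8.97 to 9.34, 8.80 to 9.01 and 8.60 to 8.92 in 67NR, 4TO7 and 4T1, and those of neural and liver markers (1 or 2 of 4) 8.97 to 9.08, 8.84 to 8.95 and 8.79 to 8.85. Those of embryonic stem cell markers (5 or 6 of 12) were 10.87 to 10.98, 10.66 to 10.84 and 10.60 to 10.85. The part of these differences in the members' levels was not tested, and in such bulk RNA fewer cells of a type and less RNA per cell cannot be told apart.

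The differences between probes of the miR-106b cluster were not the same in the 3 lines. This was read from the log2 difference of a pair of probes on the same array, whose zero has no meaning and whose change between lines is given. In all, 5 such pairs were compared over 3 pairs of lines, in 15 two-sided exact permutation tests (8 against 8 arrays, smallest possible p 0.00016), chosen after the values were seen and adjusted over the 15. A constant shift of a whole array cancels in such a difference.

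Relative to miR-93, miR-106b rose by 0.21 ± 0.03 from 67NR to 4TO7 and by 0.37 ± 0.06 from 67NR to 4T1, with no overlap of arrays (adjusted exact p = 0.00029 for each). Relative to miR-25, it was 0.36 ± 0.03 higher in 4T1 than in 67NR and 0.30 ± 0.04 higher than in 4TO7, again without overlap (adjusted exact p = 0.00029 for each). In 4TO7 against 67NR the same pair gave 0.07 ± 0.03, which did not pass (adjusted exact p = 0.071), but it was 0.18 and passed without normalization between arrays (adjusted exact p = 0.0013). MiR-93 relative to miR-25 was lower in 4TO7 than in 67NR by 0.15 ± 0.04 and higher in 4T1 than in 4TO7 by 0.14 ± 0.05 (adjusted exact p = 0.0051 and 0.016). For 4T1 against 4TO7, miR-106b over miR-93 gave 0.16 ± 0.06 (adjusted exact p = 0.015), and only 0.04 without normalization (adjusted exact p = 0.44).

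The other strand of the miR-106b hairpin, miR-106b*, was detected on all 24 arrays and did not follow the mature miRNA. Its difference from 67NR was -0.06 ± 0.02 in 4TO7 and -0.08 ± 0.02 in 4T1 (limma adjusted p = 0.031 and 0.0052), beside 0.95 and 1.24 for miR-106b. Medians of all tested probes were further below 0, at -0.15 and -0.22, so its sign may depend on the scaling. The within-array difference of the strands rose by 1.01 ± 0.06 in 4TO7 and 1.32 ± 0.06 in 4T1 over 67NR, without overlap (adjusted exact p = 0.00029 for each). The starred strands miR-93* and miR-20b* were detected on no array. Mean levels of miR-106b* were 7.82, 7.76 and 7.74 in 67NR, 4TO7 and 4T1. Those of the undetected miR-93* were no lower, at 8.13, 7.85 and 7.89. Whether miR-106b* lay near the floor of its probe, which would also leave its level flat, was not tested.

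**Figure D2:**
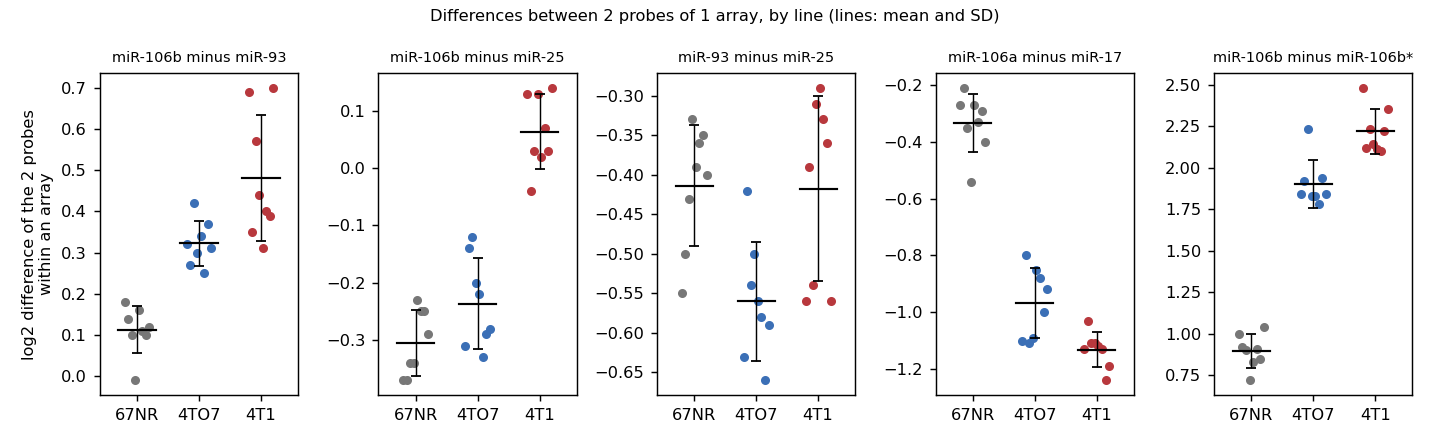
Log2 difference between 2 probes of the same array (y axis), for 5 pairs of miRNAs, by line (x axis). Points are single arrays, and lines show the mean and SD of 8 arrays. MiR-106b over miR-106b* lies at 0.72 to 1.04 in 67NR and at 1.78 to 2.48 in the other lines.

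Of the 6 miRNAs of the paralogous miR-17 to miR-92 cluster, 4 were detected in 67NR, and all 4 were called higher in 4TO7 and in 4T1. They are miR-17 and miR-20a, which only this cluster gives, and miR-19b and miR-92a, which the miR-106a cluster gives too. MiR-18a and miR-19a were detected on no array of 67NR and were in 4T1 at least 3.21-fold and 2.38-fold above it. MiR-17, the near copy of miR-106a, was higher by 2.34 ± 0.04 in 4TO7 and 2.77 ± 0.04 in 4T1 (adjusted p = 2.7e-17 and 1.7e-18). MiR-106a relative to miR-17 was lower by 0.63 ± 0.06 in 4TO7 and 0.80 ± 0.04 in 4T1 than in 67NR (adjusted exact p = 0.00029 for each), so the larger measured change was that of miR-17. Both were detected but dim in 67NR, with deposited intensities of 103.0 to 132.8 for miR-106a and 127.1 to 166.5 for miR-17. The undetected miR-20b had 81.6 to 107.7 there. Whether low signal narrowed the gap between miR-106a and miR-17 in 67NR was not tested.

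Of the other products of the miR-106a cluster with a probe of their own, miR-18b was detected in 4TO7 and 4T1 only, at least 1.96-fold and at least 2.49-fold above 67NR, and miR-363 was detected on no array. Among miRNAs with the seed of miR-25, 3 of 5 on the array were tested. MiR-92a was higher by 1.72 ± 0.04 in 4TO7 and 1.86 ± 0.04 in 4T1, and miR-32 and miR-92b, both undetected in 67NR, were in 4T1 at least 1.57-fold and 2.56-fold above it. Of 8 starred strands of both paralogous sets on the array, 4 were tested. MiR-106b* and miR-92a* were called lower in both lines, as were 208 of the 365 tested probes in 4TO7 and 215 in 4T1. MiR-17* was not called, and miR-20a*, undetected in 67NR, was at least 1.56-fold higher in 4TO7 and 1.62-fold in 4T1. Calls of starred strands were not followed through the other settings.

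By the rule for like patterns, the 3 other tested probes with the highest Pearson correlation over the 12 group means were named for each member. These values describe patterns that the lines dominate. MiR-106a was most like miR-20a, miR-17 (0.998 each) and miR-18a (0.997), and miR-20b most like miR-20a (0.984), miR-19b (0.983) and miR-17 (0.980). MiR-25 was most like miR-92a, which has its seed (0.991), miR-96 (0.990) and miR-19a (0.987). The nearest to miR-106b were the probe for miR-103 and miR-107 (0.996), miR-196b (0.994) and miR-18b (0.990), and those to miR-93 were miR-183 (0.988), miR-18a and miR-182 (0.986 each). Among the members the lowest correlation was that of miR-20b with miR-106b (0.939) and the highest that of miR-106b with miR-93 (0.985).

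TGF-beta against the receptor inhibitor changed no member by the test. Over all lines 0 of 5 were called while 39.5% of the tested probes were, and per line 0 of 5 were called in 67NR (11% of probes), in 4TO7 (21.4%) and in 4T1 (31.8%). In 67NR miR-20b was at background, so the count there rests on the other members. At an unadjusted limma p under 0.05 the counts were 0 over all lines, 0 in 67NR, 0 in 4TO7 and 1 in 4T1 (miR-106b). Of the 365 tested probes, 176, 97, 117 and 160 passed that threshold in the same order. The all-line differences lay between -0.04 and 0.04, with 95% intervals of -0.05 to 0.13 for miR-106a, -0.13 to 0.06 for miR-106b, -0.04 to 0.08 for miR-93 and -0.10 to 0.06 for miR-25. The interval of miR-20b, -0.04 to 0.07, includes the 67NR arrays on which it was not detected. An uncalled difference is not shown to be absent: changes within these intervals would have been missed. Between arrays of the same slide, 5 pairs of TGF-beta and inhibitor arrays on 3 slides, none from 4T1 and some sharing an array, gave -0.04 to 0.18 for miR-106a, 0.00 to 0.19 for miR-106b, -0.03 to 0.07 for miR-93 and 0.00 to 0.17 for miR-25.

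The largest value was that of miR-106b in 4T1. On compliant arrays it was 9.98 and 10.25 with the inhibitor and 9.88 and 9.98 with TGF-beta, and on rigid arrays 10.10 and 9.87 with the inhibitor and 9.79 and 9.79 with TGF-beta. The TGF-beta arrays were thus at or below those with the inhibitor in each microenvironment. None of them shared a slide with an inhibitor array of the same microenvironment, so agent and slide cannot be told apart in this pattern. The difference was -0.19 ± 0.07 (95% interval -0.35 to -0.03) and did not pass (adjusted p = 0.065). It passed under median scaling over all miRNA probes (adjusted p = 0.023) and in the authors' deposited table of log2 values (adjusted p = 0.047), within a range of 0.023 to 0.50 over 6 settings. In the same cluster and line, miR-25 gave -0.10 ± 0.06 and miR-93 0.05 ± 0.05 (adjusted p = 0.24 and 0.37).

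Other miRNAs of the seed groups were called for TGF-beta. With the seed of miR-25, miR-32, miR-92a and miR-92b were lower over all lines, where 18.1% of the tested probes were. The all-line values of miR-32 and miR-92b include the 67NR arrays, on which neither was detected. In 4T1, where 19.2% of probes were lower, miR-32, miR-92a and miR-92b were lower by 0.39 ± 0.07, 0.30 ± 0.05 and 0.26 ± 0.05 (limma adjusted p = 0.00069, 0.00025 and 0.0014). MiR-17 was 0.29 ± 0.06 higher with TGF-beta in 4TO7 (adjusted p = 0.0011), where miR-106a gave 0.08 ± 0.07 (adjusted p = 0.48). Of the 6 miRNAs of the miR-17 to miR-92 cluster, 2 were lower over all lines (miR-19a and miR-92a), where 18.1% of the tested probes were. Of these, miR-19a was not detected in 67NR. In 4TO7, 1 was higher (miR-17), where 9.59% of probes were, and in 4T1, 3 were lower (miR-18a, miR-19a and miR-92a), where 19.2% were. Whether these differ from the members was not tested, and their calls were not followed through the other settings. No TGF-beta array of 4T1 shared a slide with an inhibitor array of the same microenvironment. With the slide in the model, the probes called lower in 4T1 fell from 70 to 32.

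Neither the line nor the microenvironment altered the response of a member to TGF-beta by the test. In the F test between lines 0 of 5 were called (adjusted p = 0.20 for miR-106b to 0.86 for miR-20b), beside 14.5% of the tested probes. No member had an unadjusted p under 0.05 in it, where 107 of 365 probes had. MiR-17 and miR-92a were called by the F test (adjusted p = 0.014 and 0.015). The values of miR-20b in 67NR that enter this test are background. For the difference of the TGF-beta effect between rigid and compliant culture, limma called 0 of 5 members and 0% of the tested probes, and 1 of 5 members (miR-20b) and 22 of 365 probes had an unadjusted p under 0.05. The largest member value there was that of miR-20b, -0.15 ± 0.05 (adjusted p = 0.67).

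Rigid against compliant culture gave small differences in the miR-106b cluster. Over all lines miR-93 was lower by 0.09 ± 0.03 and miR-25 by 0.11 ± 0.04, which is 0.94-fold and 0.92-fold (adjusted p = 0.020 and 0.038). These are 2 of 5 members called lower, beside 11.2% of the tested probes. Neither call was kept with the slide in the model (adjusted p = 0.14 for miR-93 and 0.099 for miR-25), and leaving out 1 array at a time ended the call of miR-25 in 15 of 24 cases. MiR-106b gave -0.11 ± 0.04 (adjusted p = 0.067), miR-20b 0.07 ± 0.03 (adjusted p = 0.057) and miR-106a 0.01 ± 0.04 (adjusted p = 0.90). With the set number of the replicates as a block, miR-20b passed (0.070, adjusted p = 0.036), although its 67NR arrays hold background.

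In 67NR, miR-93 was 8.56, 8.67, 8.60 and 8.66 on compliant arrays and 8.54, 8.53, 8.65 and 8.61 on rigid ones. In 4TO7 it was 9.42, 9.42, 9.30 and 9.46 on compliant and 9.28, 9.32, 9.21 and 9.30 on rigid arrays. In 4T1 it was 9.42, 9.56, 9.58 and 9.60 on compliant and 9.40, 9.43, 9.40 and 9.44 on rigid arrays. Compliant and rigid arrays thus overlapped in every line, and the rigid arrays reached the lowest value in each.

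MiR-25 in 67NR was 9.10, 9.08, 9.10 and 9.09 on compliant arrays and 8.93, 8.86, 9.0 and 8.97 on rigid ones, without overlap. In 4TO7 it was 10.01, 9.83, 9.79 and 10.01 on compliant and 9.83, 9.90, 9.83 and 9.96 on rigid arrays. In 4T1 it was 9.96, 10.12, 9.87 and 9.96 on compliant and 9.96, 9.74, 9.72 and 9.83 on rigid arrays. In these last 2 lines compliant and rigid arrays overlapped. How many other tested probes separate them in 67NR was not counted.

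Across the 6 pairings of line and agent, the rigid mean was below the compliant mean in 6 for miR-106b (-0.15 to -0.01) and for miR-25 (-0.20 to -0.01), and in 5 for miR-93 (-0.17 to 0.00). Within single lines 0 of 5 members were called, beside 11% of the tested probes in 67NR, 2.74% in 4TO7 and 7.4% in 4T1. At an unadjusted limma p under 0.05 the counts were 1, 2 and 2 of 5 members, beside 87, 62 and 83 of the 365 tested probes. A difference between lines in the effect of rigidity was called for no member (0 of 5, beside 8.22% of probes, F test adjusted p = 0.31 to 0.95). At an unadjusted F test p under 0.05 it was 0 of 5 members and 69 of 365 probes. In these counts the values of miR-20b in 67NR are background. MiR-92a, which has the seed of miR-25 and comes from both the miR-106a and the miR-17 to miR-92 cluster, was also lower on rigid arrays by 0.11 ± 0.03 (adjusted p = 0.017). The other 5 of the latter cluster were not called.

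With the slide in the model miR-93 gave -0.09 and miR-25 -0.12 (adjusted p over the 6 settings 0.012 to 0.14 and 0.0070 to 0.099). On the same slide there were 4 rigid and compliant pairs of arrays, from 4T1 and 4TO7 and with some arrays shared. They gave 0.02, -0.18, -0.20 and 0.00 for miR-93 and -0.21, -0.15, -0.23 and 0.16 for miR-25. Leaving out 1 array at a time kept the call of miR-93 in 24 of 24 cases, and the adjusted p of miR-25 was then 0.018 to 0.081.

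**Figure D3:**
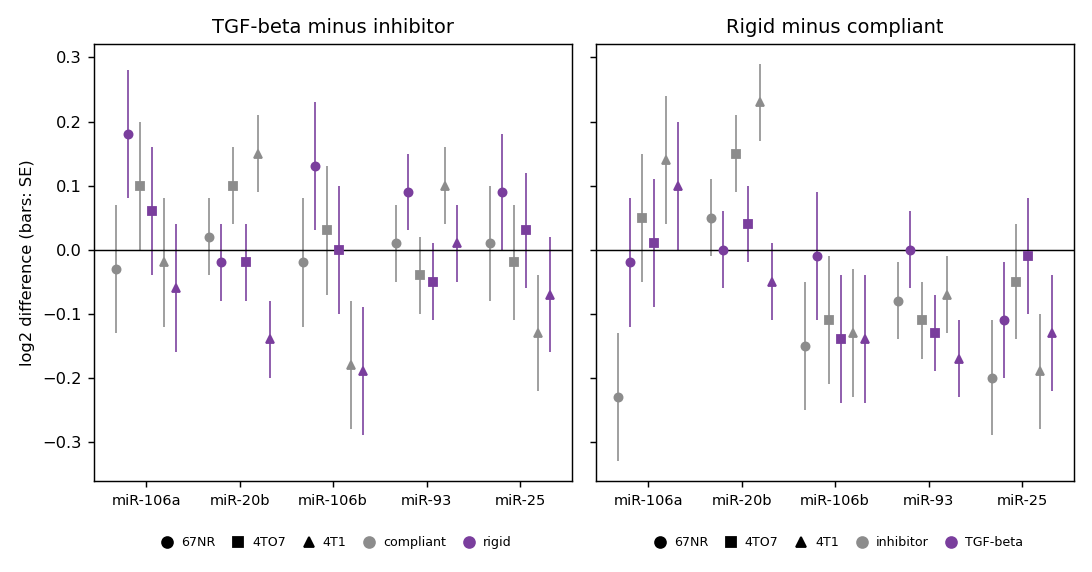
Log2 difference between TGF-beta and inhibitor (left) and between rigid and compliant culture (right) for each member (x axis), in each of 6 pairings, with bars for the standard error. Values lie on both sides of 0 on the left, and those of miR-106b and miR-25 lie below 0 in 6 of 6 pairings on the right. The points of miR-20b in 67NR come from arrays on which it was not detected.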

How the data were processed

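MicroRNA was measured on 24 arrays with 2 dyes. Per the file headers, the deposited intensity is the ratio of the sample dye (DY649) to a synthetic reference dye (DY547), linear, background-subtracted and corrected for labelling by the authors, with arrays not normalized to each other. Beside it stand, per the file headers, an error in intensity units, a detection p-value and a fail code (a score). The authors' deposited table of log2 intensity (338 probes) equals log2 of these values plus 1 constant per array (-0.287 to 0.236; largest deviation 5.87e-06; array medians 8.13 to 8.36). The sources used here do not say how the constants were set, and 27 tested probes are not in it.

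Log2 intensities were quantile normalized over 558 miRNA probes (limma 3.58.1, R 4.3.3). Probes were kept if detected (p under 0.05) on both arrays of at least 1 group, 367 probes, and if fewer than 12 arrays had the fail code, which left 365. A model of 12 group means (lmFit, eBayes with trend, 12 residual degrees of freedom) was fitted for 14 comparisons, each adjusted by Benjamini and Hochberg over all 365. On simulated data with most tested probes changed, the model recovered nearly all changes put in but also called unchanged probes, more often than the threshold allows. The number of arrays limits the precision. No replicate pair held identical values.

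Members and lists were chosen with earlier results of these data known. Named were the 5 members in every comparison, the called members of context lists, and for each member the 3 most correlated probes. Alternatives were 2 median scalings, the authors' table, no detection filter, slide or set number as a block, and leaving out each array.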

Additional observations from a re-analysis of the deposited data

Results flagged for a closer look

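In 15 sets of 8 arrays, 1 for each member and line, 2 held an array far from the others by Dixon's ratio, both times the same array: the second replicate of 67NR in rigid culture with the inhibitor. There miR-106a had a log2 level of 6.51, with the nearest of the other 67NR arrays at 6.80 (gap over range 0.732), and miR-106b had 8.52, with the nearest at 8.70 (0.678). Chance alone passes the critical ratio in about 1 of 20 sets. The deposited intensities of that array before normalization, 106.0 for miR-106a and 406.9 for miR-106b, lay within the range of the other 67NR arrays. Without this array, as without any other, the 8 differences from 67NR of the members detected there kept their call.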

How the results depend on the processing

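The 8 differences from 67NR of the members detected there, and the 3 called between 4T1 and 4TO7, kept their direction and call under median scaling over all miRNA probes, median scaling over the always-detected probes, the authors' deposited table, no detection filter, slide as a block, the replicate block, and without each array. Of member results under these 6 settings, 387 kept direction and call, 22 uncalled differences changed sign, 8 came past the threshold and 3 fell below it; the cause was not tested.

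For TGF-beta over all lines, median scaling over all miRNA probes gave -0.00069 for miR-106a, -0.0041 for miR-20b, -0.023 for miR-93 and -0.10 for miR-106b (adjusted p = 0.049, range 0.049 to 0.87). MiR-25 gave 0.0012 in the authors' deposited table and 0.0015 with the slide. In 67NR, miR-20b gave 0.053 under scaling over always-detected probes and 0.056 in the authors' deposited table, and miR-106b -0.0035 under median scaling over all probes. In 4TO7, miR-106b gave -0.092, -0.059 and -0.039 under the 2 median scalings and the authors' deposited table, and miR-25 -0.030 under the first. In 4T1, median scaling over all probes gave -0.026 for miR-20b, -0.0082 for miR-93 and -0.21 for miR-106b (adjusted p = 0.023), the authors' deposited table -0.17 for miR-106b (adjusted p = 0.047), and the slide block 0.11 for miR-106a. With the slide, the TGF-beta effect in rigid minus compliant culture was -0.019 for miR-106a, -0.016 for miR-106b and -0.0052 for miR-25.

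For rigidity over all lines, miR-106a gave -0.0086 under scaling over always-detected probes and -0.0014 in the authors' deposited table, and the same 2 settings gave -0.12 and -0.12 for miR-106b (adjusted p = 0.035 and 0.028, range 0.028 to 0.18). The slide block gave -0.086 for miR-93 and -0.12 for miR-25, and no detection filter -0.11 for miR-25 (adjusted p = 0.053). In 67NR miR-25 gave -0.18 in the authors' deposited table (adjusted p = 0.043, range 0.043 to 0.43) and in 4TO7 miR-93 -0.20 under scaling over always-detected probes (adjusted p = 0.025, range 0.025 to 0.57). For 4T1 against 4TO7, miR-25 gave 0.043 in the authors' deposited table and 0.010 with the slide. Without normalization, miR-93 relative to miR-25 gave 0.049 for 4T1 against 67NR.

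Deviations from the group means of arrays with the same set number correlated at -0.09 to 0.28 in 67NR, with 2 of 6 pairs over 0.1. They correlated at -0.16 to 0.38 in 4TO7, with 3 of 6 over 0.1, and at 0.23 to 0.49 in 4T1, with 6 of 6. Only in 4T1 did the numbers pair the arrays throughout. With the replicate block, rigidity over all lines gave 0.070 for miR-20b (adjusted p = 0.036, range 0.036 to 0.30), and no other member call changed.

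Without 1 array at a time, results that changed call or sign ranged as follows. For TGF-beta: miR-20b over all lines -0.0093 to 0.035, in 67NR -0.026 to 0.019 and in 4T1 -0.063 to 0.069; miR-25 over all lines -0.034 to 0.0021 and in 4TO7 -0.051 to 0.056; miR-106b in 4TO7 -0.054 to 0.092 and in 4T1 -0.25 to -0.12. For rigidity: miR-106a over all lines -0.016 to 0.032 and in 4TO7 -0.037 to 0.096; miR-106b over all lines -0.14 to -0.090; miR-20b over all lines 0.048 to 0.091 and in 4T1 0.024 to 0.15; miR-25 over all lines -0.13 to -0.096 and in 4TO7 -0.081 to 0.026. For 4T1 against 4TO7: miR-20b -0.018 to 0.047 and miR-25 -0.028 to 0.026. For the TGF-beta effect, rigid minus compliant: miR-106a -0.0039 to 0.092, miR-106b -0.014 to 0.084, miR-93 -0.036 to 0.019 and miR-20b -0.19 to -0.10, called (adjusted p = 0.022) without the second replicate of 4T1 in rigid culture with TGF-beta. Without the first replicate of that group, miR-20b was called for rigidity over all lines (0.091, adjusted p = 0.0022) and in 4T1 (0.15, adjusted p = 0.0067). MiR-106b in 4T1 with TGF-beta was called without 4 single arrays, and miR-106b for rigidity without 4.

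Counts of tested probes that moved by over 1.5 times were those higher with TGF-beta over all lines (78, against 43 under median scaling over all probes and 49 with the slide), in 67NR (12, against 5, 35 in the authors' deposited table and 30 with the replicate block) and in 4T1 (46, against 80 under scaling over always-detected probes, 77 in the authors' deposited table and 18 with the slide), and lower in 4T1 (70, against 32 with the slide). For rigidity over all lines they were higher (39, against 20 under scaling over always-detected probes and 15 with the slide) and lower (41, against 24 with the slide). In 4TO7 they were higher (3, against 5 in the authors' deposited table and 6 with the replicate block) and lower (7, against 18 under scaling over always-detected probes, 4 with the slide and 12 with the replicate block), and in 4T1 higher (13, against 6 with the slide) and lower (14, against 9 without the filter and 6 with the slide). The F test of TGF-beta between lines called 53, against 81 with the replicate block. Signal over background limits miR-20b in 67NR, and the calls of miR-106b for TGF-beta and for rigidity depend on the scaling.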
